A study of Mus musculus with 2 samples.

Results

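Matricellular and adhesive matrix proteins are secreted proteins that tell cells how to hold on to the matrix around them. The 10 genes described here, of 28692 features counted, were Tnc, Tnxb, Postn, Thbs1, Thbs2, Thbs4, Sparc, Sparcl1, Fn1 and Vtn. They were chosen by symbol, with no measured value in the rule, though earlier results of these data were known. All 10 had UMIs (counted RNA molecules) in both libraries. The cells were stromal cells of mouse intestine that had grown outside the gut. Pieces of the large (LI) or small intestine (SI) of E12.5 embryos of the EYFP strain (C57BL/6; EYFP males mated with C57BL/6Nrj females), whose cells carry a yellow fluorescent protein, grew for 4 weeks beneath the kidney capsule of wild-type adult host mice. The grafts were then made into single cells and sorted for live YFP+ Itgb1+ cells without the surface proteins CD45, Ter119, BP3, CD31, EpCAM and L1CAM, and each kind of graft gave 1 droplet single-cell RNA library. The LI library came from pooled grafts, the pooling of the SI grafts is not given in the sources used here, and the labels name a 3′ and a 5′ kit for the series without saying which library used which, so kit, embryo, host and intestinal region cannot be told apart between the libraries. With 1 library a group there was no replicate check and no test: every interval below is an exact 95% interval that covers counting error only.

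In the gut wall, fibronectin and vitronectin are bound by integrins and anchor cells to the matrix, while tenascins, periostin, thrombospondins and SPARC family proteins are better known for loosening adhesion, binding collagen and growth factors, and rising during development and repair. Fibroblast subsets occupy layers of the wall: the PDGFRAhi subset borders the epithelial sheet, the Fgfr2 subset is interstitial, and the CD81 and Pi16 subsets are adventitial. Pericytes wrap small vessels, smooth muscle cells (SMC) form the muscle layers, and interstitial cells of Cajal (ICC) pace them.

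After removal of cells under 500 genes or over 10% mitochondrial UMIs, 9873 LI and 7910 SI graft cells were left, with 61023220 and 51656233 UMIs and a median of 5288 and 5682 UMIs a cell. Cells were placed in classes by how many markers of a fixed list they carried, none of the 10 genes being a marker, and the classes are called "-like" since no protein was measured. In the LI and SI graft there were 463 and 340 PDGFRAhi FB-like cells, 757 and 496 Pi16 FB-like, 580 and 801 CD81 FB-like, 871 and 704 Fgfr2 FB-like, 4887 and 3001 other FB (fibroblasts, FB, that met no subset gate), 599 and 1014 pericyte-like and 580 and 712 SMC-like cells. The ICC-like (332 and 46) and mesothelial-like (32 and 22) classes had fewer than 50 cells in a library and are given only as values. The exception is that the LI ICC-like level is a point in the correlations between genes. The gates were narrowest for CD81 and Fgfr2 FB-like cells, of which 87.8% and 93.5% in the LI graft sat at the minimum number of markers, and the same cluster did not always fill a class: LI Pi16 FB-like cells came mainly from clusters led by Myoc (29.1%), Cthrc1 (26.3%) and Ctla2a (25.1%), and SI ones from clusters led by Pi16 (43.5%) and Stmn4 (32.7%). Cells with markers of another lineage and at most 2 fibroblast markers (44 LI and 64 SI graft cells, at a median of 2874 and 10794 UMIs) serve as a background, made up of free RNA in the droplets and of what these cells express themselves. Pi16 and CD81 FB-like cells were the deepest of the 7 classes compared (a median of 10051 and 8516 UMIs in the LI and 9032 and 7641 in the SI graft), which raises their shares of cells with a UMI but not their CPM, and the libraries shared 26 barcode sequences. Levels below are pooled CPM, the UMIs of a gene per 1000000 UMIs of its class, and differences are log2 ratios of CPM + 1.

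Tnc (ENSMUSG00000028364, chr4:63959785-64047015, minus strand) encodes tenascin-C, a large glycoprotein of developing and healing tissue that weakens adhesion to fibronectin. In the LI graft it stood at 215 CPM (198 to 234) in PDGFRAhi FB-like cells, 191 in Fgfr2 FB-like, 171 in SMC-like, 149 in other FB, 103 in pericyte-like, 95.6 in Pi16 FB-like and 95.5 in CD81 FB-like cells. In the SI graft the same classes had 221 CPM (202 to 241), 95.3, 149, 97.0, 66.8, 18.6 and 38.8 CPM. Tnc was thus highest in PDGFRAhi FB-like cells of both grafts, although in the LI graft its interval overlapped that of Fgfr2 FB-like cells. The share of PDGFRAhi FB-like cells with a Tnc UMI was 58.3% in the LI and 58.2% in the SI graft, against 4.55% and 3.12% of the other-lineage cells. Against all other fibroblast-lineage cells the difference was 0.65 (0.53 to 0.77) in the LI and 1.57 (1.43 to 1.71) in the SI graft, the wider gap in the SI graft standing beside the low levels of its Pi16 and CD81 FB-like cells. Among male LI graft cells, few in most classes, Tnc was not highest there: 24 PDGFRAhi FB-like cells had 247 CPM and 27 SMC-like cells 579.8 CPM. Male Fgfr2 FB-like (24 cells, 336 CPM), other FB (361 cells, 320 CPM) and pericyte-like cells (48 cells, 274 CPM) were also above it. Male CD81 (161 CPM) and Pi16 FB-like cells (130 CPM) were below it.

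Tnxb (ENSMUSG00000033327, chr17:34670535-34719815, plus strand) encodes tenascin-X, which binds collagen fibrils in loose connective tissue and skin. Its pattern among fibroblasts was nearly the mirror of that of Tnc: the lowest levels were those of PDGFRAhi FB-like cells, at 35.8 CPM in the LI and 23.0 CPM in the SI graft, and the highest those of Pi16 FB-like cells, at 164 and 358 CPM. CD81 FB-like cells had 159.6 and 258 CPM in the LI and SI graft, Fgfr2 FB-like cells 143 and 207 CPM, other FB 153 and 187 CPM, SMC-like cells 96.2 and 74.7 CPM and pericyte-like cells 50.6 and 49.2 CPM. The 4 fibroblast classes other than PDGFRAhi FB-like lay close together in the LI graft, where the intervals of Pi16 and CD81 FB-like cells overlapped, and spread out in the SI graft. By clusters Pi16 FB-like cells were highest in the SI graft alone (340.5 CPM), and in the LI graft they had 71.7 CPM against 172 in other FB. PDGFRAhi FB-like cells were 4.24-fold lower than the other fibroblast-lineage cells in the LI graft and 9.58-fold lower in the SI graft, and 13.4% and 7.35% of them had a UMI. Across the class levels of both libraries, each with at least 50 cells (15 points that share 2 libraries), the Pearson correlation of Tnxb with Tnc was -0.66 and that with Sparc 0.85, given as descriptions. The Tnxb gene overlaps exons of the pseudogene Cyp21a2-ps on the opposite strand, and Tnc, Thbs1 and Fn1 overlap exons of 8030451A03Rik, Gm29233 and Apol7d on the opposite strand. Since the strand setting of the counting is not given in the sources used here, reads of such partners cannot be told apart.

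Postn (ENSMUSG00000027750, chr3:54361109-54391037, plus strand) encodes periostin, a collagen-binding protein of fibroblasts under load that cross-links the matrix. Its order of classes differed between the grafts. In the LI graft it was highest in Fgfr2 FB-like cells, at 1431 CPM (1398 to 1463), followed by SMC-like at 1203, PDGFRAhi FB-like at 1039, other FB at 864, CD81 FB-like at 682, Pi16 FB-like at 627 and pericyte-like at 254 CPM. In the SI graft it was highest in Pi16 FB-like cells, at 829 CPM (803 to 856), followed by SMC-like at 572, CD81 FB-like at 511, Fgfr2 FB-like at 414, other FB at 396, PDGFRAhi FB-like at 176 and pericyte-like at 168 CPM. PDGFRAhi FB-like cells, near the top in the LI graft, were level with pericyte-like cells in the SI graft. Of PDGFRAhi FB-like cells 82.1% had a Postn UMI in the LI and 31.2% in the SI graft, and after each cell was thinned to 2000 UMIs these shares were 66.4% and 16.2%. Because Postn, Thbs4 and Vtn showed the widest differences between libraries or classes, the bases in front of their RefSeq start sites (GRCm38.p6) are shown where each is described, read in the direction of the gene, with matches to 6 motifs in capitals. The motifs, searched on both strands, were the TATA box TATAAA, the GC box GGGCGG, the CCAAT box, the AP-1 site TGANTCA, the TEAD site GGAATG and the CArG box, and 12.4%, 32.7%, 33.8%, 6.75%, 12.6% and 1.47% of the 32817 windows of 250 bases before a start site held them. RefSeq windows were at hand for 7 of the 10 genes (not Thbs1, Sparcl1 and Fn1), and a match is a description of letters, not of a site in use.
Postn, chr3:54360857-54361106, plus strand, the window next to the start of the annotated gene: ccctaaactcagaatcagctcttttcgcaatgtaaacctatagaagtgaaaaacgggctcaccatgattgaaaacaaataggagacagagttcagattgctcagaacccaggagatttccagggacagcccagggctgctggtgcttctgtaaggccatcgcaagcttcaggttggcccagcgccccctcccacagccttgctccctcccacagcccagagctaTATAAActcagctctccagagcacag

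The Postn window held 1 match, a TATA box 26 bases before the start.

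Thrombospondins are secreted proteins of several identical chains that bind calcium, integrins and other matrix proteins. Thbs1 (ENSMUSG00000040152, chr2:118111876-118127133, plus strand) activates latent TGF-beta and slows the growth of vessels. It was highest in Pi16 FB-like cells of both grafts, at 512 CPM (497 to 528) in the LI and 322 CPM (306 to 339) in the SI graft, and lowest in PDGFRAhi FB-like cells, at 157 and 101 CPM. In between, in the LI and SI graft, SMC-like cells had 378 and 195 CPM, CD81 FB-like 370.3 and 207, other FB 302 and 163, Fgfr2 FB-like 228 and 128 and pericyte-like cells 211 and 174 CPM. By clusters SMC-like cells were lowest, at 114 and 82.5 CPM. Each of the 7 gated classes was higher in the LI graft, but the direction turned in female pericyte-like cells, at -0.30 (-0.49 to -0.11), and in the few male PDGFRAhi FB-like cells, at -1.01 (-2.24 to 0.02). The other-lineage cells had 178 CPM in the LI and 36.4 CPM in the SI graft, and the share of cells with a UMI was 13.6% there in the LI graft against 45.1% in PDGFRAhi FB-like cells. The LI cluster led by Mmp9, Acp5 and Tyrobp, genes of myeloid cells, had 267 CPM of Thbs1 but 45.8 CPM of Postn, where all gated cells had 323 and 833 CPM. The LI other-lineage level is above that of LI PDGFRAhi FB-like cells, and whether these UMIs are free RNA or the cells' own was not tested.

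Thbs2 (ENSMUSG00000023885, chr17:14665500-14694235, minus strand), a relative of Thbs1 that also restrains vessel growth, changed its order between the grafts. In the LI graft it was highest in Pi16 FB-like cells, at 199 CPM (189 to 208), with other FB at 168 and CD81 FB-like cells at 166 CPM next. In the SI graft it was highest in other FB, at 236 CPM (229 to 244), and CD81 FB-like cells, at 227 CPM (216 to 239), whose intervals overlapped, while Pi16 FB-like cells had 78.3 CPM. Fgfr2 FB-like cells had 117 and 81.0, PDGFRAhi FB-like 54.0 and 37.9, pericyte-like 44.9 and 82.7 and SMC-like cells 66.9 and 75.8 CPM in the LI and SI graft. Among SI clusters, the Thbs2 level reached 945 CPM in the cluster of 808 cells led by Jam2, Fibin and Tmem229a. Among LI clusters it reached 418 CPM in the cluster of 426 cells led by Cthrc1, Prg4 and Sfrp4. The LI cluster of 777 cells led by Kcnn3, Jam2 and Chodl had 312 CPM. Thbs2 was itself among the 10 leading genes of the SI cluster, so its level there describes the cluster and is no finding about it.

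Thbs4 (ENSMUSG00000021702, chr13:92751590-92794818, minus strand), of the second thrombospondin subgroup and known from tendon, muscle and artery, was carried by few cells. Of the 7 classes compared it was highest in CD81 FB-like cells of both grafts, at 192 CPM (180.5 to 204) in the LI and 62.8 CPM (56.9 to 69.2) in the SI graft. These intervals overlapped that of LI Pi16 FB-like cells (181 CPM) and those of SI SMC-like cells (60.1 CPM) and SI other FB. The few SI ICC-like cells had 261 CPM. Among male cells other FB led in the LI graft (454 against 319 CPM in CD81 FB-like cells). Male SMC-like cells led in the SI graft (82.6 against 61.2 CPM). Other FB had 131 and 57.4 CPM in the LI and SI graft, SI Pi16 FB-like cells 42.8, LI SMC-like cells 78.8 and pericyte-like cells 43.4 and 23.5 CPM. No cluster was named CD81 FB-like, and by clusters Thbs4 was, of the classes compared, highest in Pi16 FB-like cells of the LI (205 CPM) and SMC-like cells of the SI graft (68.6 CPM). The lowest gated classes were the same in both grafts, with 13.9 and 7.24 CPM in PDGFRAhi FB-like and 27.8 and 3.74 CPM in Fgfr2 FB-like cells. Of all fibroblast-lineage cells 15.9% in the LI and 7.94% in the SI graft had a Thbs4 UMI, and the tenth of cells with the most held 92.8% of its UMIs in the LI graft. No Thbs4 UMI was found in the other-lineage cells (0 of 44 and 0 of 64 cells, which allow shares of up to 6.82% and 4.69%).
Thbs4, chr13:92794819-92795068, minus strand: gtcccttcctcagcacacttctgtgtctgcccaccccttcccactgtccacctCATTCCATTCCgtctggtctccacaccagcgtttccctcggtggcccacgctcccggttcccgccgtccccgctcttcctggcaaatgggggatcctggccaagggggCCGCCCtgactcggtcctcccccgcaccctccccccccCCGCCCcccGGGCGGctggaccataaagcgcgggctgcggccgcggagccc

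The Thbs4 window held 3 GC boxes and 2 overlapping TEAD matches, at 70.8% G and C.

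SPARC binds collagen and calcium and rounds up cells in culture, and its relative hevin, the product of Sparcl1, is known from vessels and brain. Sparc (ENSMUSG00000018593, chr11:55394500-55423183, minus strand) had a UMI in 98.2% or more of the cells of every class of at least 50 cells, against 54.5% and 45.3% of other-lineage cells. Its level was 15940.2 CPM in LI and 21343 CPM in SI CD81 FB-like cells, the highest gated class in both grafts. No cluster was named CD81 FB-like. By clusters Sparc was highest in Pi16 FB-like cells (14981.9 and 19376.8 CPM), with other FB next (14891.3 and 18398.9 CPM). Pi16 FB-like cells had 14384 and 20119.6, Fgfr2 FB-like 14475 and 15787 and other FB 14121 and 15790.3 CPM in the LI and SI graft. PDGFRAhi FB-like (8423 and 7548 CPM), pericyte-like (8237 and 8626) and SMC-like cells (8508 and 8073) formed a lower group in both grafts. Among clusters Sparc reached 29381 CPM in the LI cluster led by Fmo2, Lsamp and Cpz.

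Sparcl1 (ENSMUSG00000029309, chr5:104079111-104113733, minus strand) was highest in SMC-like cells, at 950.5 CPM (919.9 to 982) in the LI and 967 CPM (941 to 993) in the SI graft. Pericyte-like cells had 693 and 863, CD81 FB-like 787 and 579, other FB 693 and 546, Pi16 FB-like 554 and 353, PDGFRAhi FB-like 444 and 408 and Fgfr2 FB-like cells 397 and 355 CPM. By clusters the LI order turned, with 1196 CPM in pericyte-like, 852 in other FB and 643 in SMC-like cells, and the log2 difference of SMC-like over fibroblast-lineage cells was 0.030. Within gated pericyte-like cells Sparcl1 was higher in those with a Myh11 UMI (956 and 948 CPM) than in those without (505 and 712 CPM). The highest cluster was an unnamed SI cluster of 520 cells led by Nrip2, Rcan2 and Pcp4l1, at 1793 CPM, which also had 232 CPM of Vtn. Mesothelial-like cells were at the other end, with 5 LI and 4 SI graft UMIs of Sparcl1 in all.

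Fn1 (ENSMUSG00000026193, chr1:71585520-71653200, minus strand) encodes fibronectin, on which the assembly of many other matrix proteins depends. Its order was the same at the top in both grafts, with 1060.1 CPM (1022 to 1099) and 952 CPM (913 to 992) in PDGFRAhi FB-like cells of the LI and SI graft and 786 and 711 CPM in Pi16 FB-like cells. Fgfr2 FB-like cells had 562 and 615, SMC-like 543 and 571, other FB 509 and 491, CD81 FB-like 432 and 393 and pericyte-like cells 253 and 268 CPM, the last being the lowest of the 7 classes. Of PDGFRAhi FB-like cells 95% and 93.5% had a Fn1 UMI, against 42.7% and 45.0% of pericyte-like cells. Tnc and Fn1, whose products bind each other, were the pair of the 10 genes highest in PDGFRAhi FB-like cells in both libraries, with a class-level correlation of 0.26 over the 15 points. By clusters Fn1 was highest in Pi16 FB-like cells of the LI graft (1176 CPM, against 1091 in PDGFRAhi FB-like cells), and in the SI graft the 2 clusters named PDGFRAhi FB-like, led by Sox6 and Wif1, had 1021 and 591 CPM against 754 CPM in Fgfr2 FB-like cells.

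Vtn (ENSMUSG00000017344, chr11:78499091-78502324, plus strand) encodes vitronectin, best known as a liver-made adhesion protein of serum. It was close to a marker of pericyte-like cells, at 285 CPM (267 to 304) in the LI and 422 CPM (406 to 438) in the SI graft against 1.62 and 2.21 CPM in all fibroblast-lineage cells, a difference of 6.77 (6.55 to 6.99) and 7.04 (6.81 to 7.27). Of pericyte-like cells 59.8% and 73.4% had a Vtn UMI. The fibroblast-lineage share in the LI graft, 0.714%, was below that of other-lineage cells, 2.27% (1 of 44). That of the SI graft was 1.16% against 0 of 64 other-lineage cells, which allow up to 4.69%, so a difference was not detectable at this depth. Pericyte-like cells with and without a Myh11 UMI both carried it, at 352 and 237 CPM in the LI and 400.2 and 460.1 CPM in the SI graft. SMC-like cells had 13.8 and 37.1 CPM, but the largest SMC-like cluster of each graft, led by Cnn1 and Actg2 in the LI and by Npnt and Hhip in the SI graft, had 1.26 and 1.95 CPM. In the LI graft 15.5% of SMC-like cells lay in the pericyte cluster led by Rgs5, and in the SI graft 6.32% lay in the pericyte cluster led by Vtn and 17.8% in the Nrip2 cluster above. Vtn was also among the 10 leading genes of both pericyte clusters, although no gate used it.
Vtn, chr11:78498870-78499090, plus strand, ending at the base before the annotated gene: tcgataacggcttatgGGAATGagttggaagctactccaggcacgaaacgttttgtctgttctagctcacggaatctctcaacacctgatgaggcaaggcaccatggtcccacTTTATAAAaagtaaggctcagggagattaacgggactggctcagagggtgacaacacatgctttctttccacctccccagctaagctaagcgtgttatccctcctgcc

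The Vtn window held a TEAD match and 2 TATA boxes that overlap on opposite strands, all at least 130 bases before the RefSeq start.

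**Figure D1:**
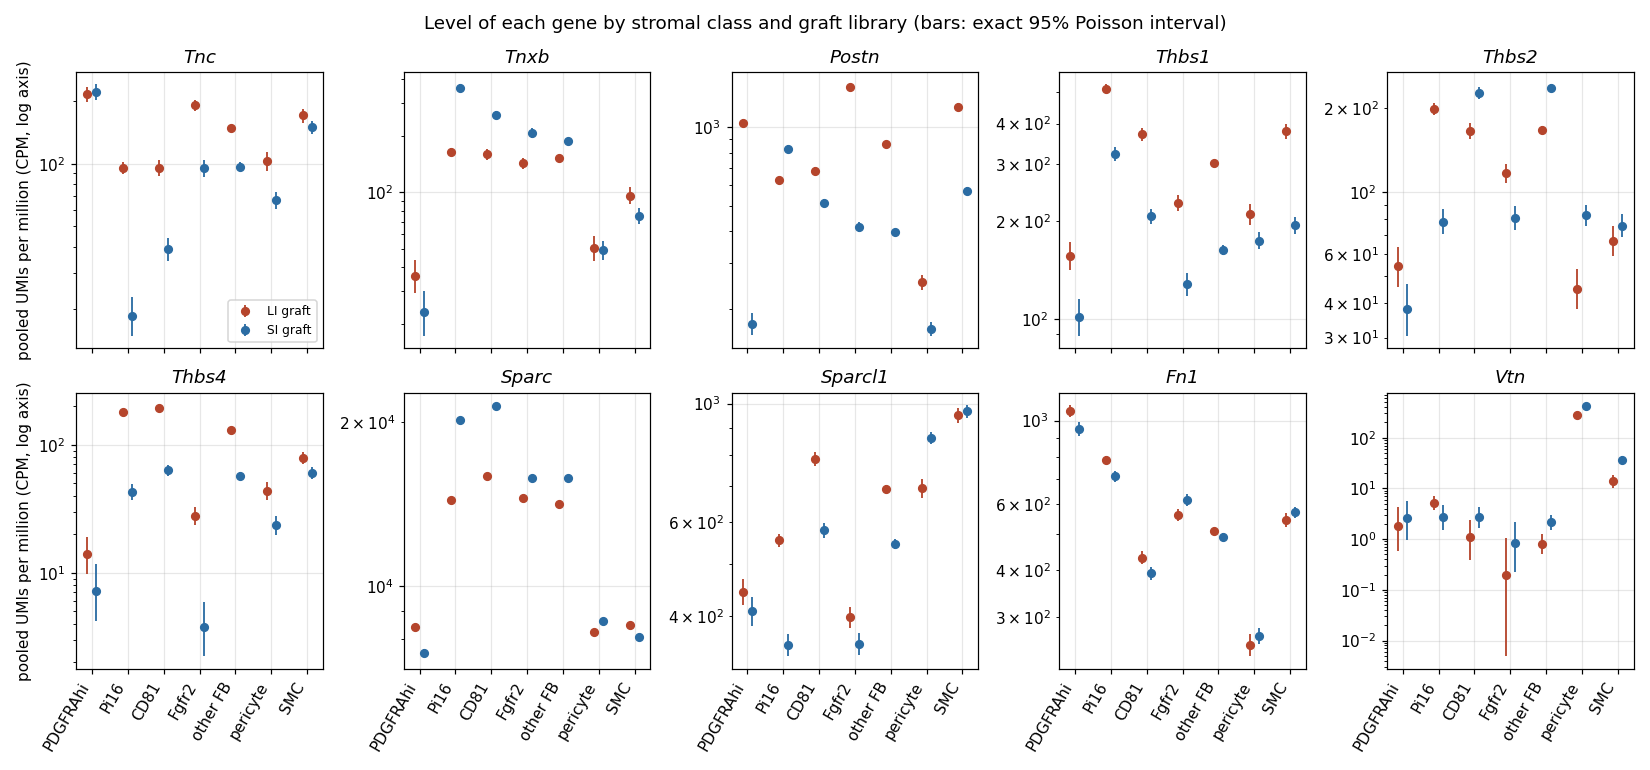
Pooled CPM (log axis, a scale of its own for each gene) of the 10 genes in 7 stromal classes, LI graft in red and SI graft in blue, with exact 95% Poisson intervals. Vtn stands far above the other classes in pericyte-like cells (285 and 422 CPM), and the red and blue points of Postn part most in PDGFRAhi FB-like cells (1039 and 176 CPM).

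**Figure D2:**
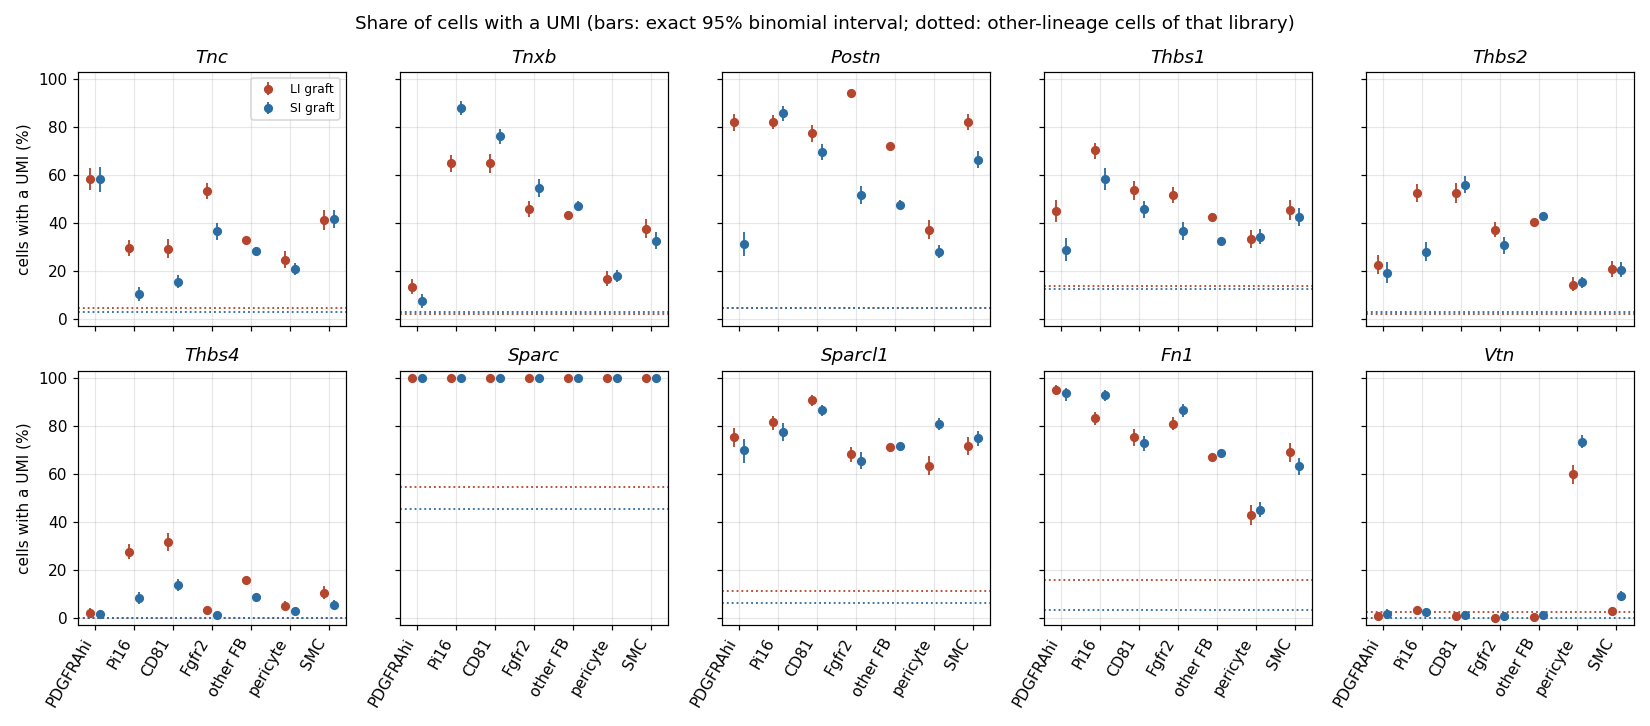
Share of cells with a UMI in percent in the same classes, with exact 95% binomial intervals, and dotted lines at the share of other-lineage cells of each library. Sparc is near the top in every class, Fn1 drops in pericyte-like cells (42.7% and 45.0%), and the Vtn share of fibroblast classes lies close to the dotted lines.

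The question of which classes carry these genes was put across the whole table of genes with at least 10 CPM on a side of the comparison in both libraries, a gene being called where it differed at least 2-fold the same way in both libraries. Of the 10 genes, 8 peaked in the same class in both grafts (all but Postn and Thbs2), as did 48.4% of all genes. With Louvain clusters in place of gates 4 did (Tnc, Thbs1, Sparc and Vtn), Tnxb, Thbs4, Sparcl1 and Fn1 no longer sharing a class, and among male cells 4 did over the 3 classes with at least 50 male cells in both libraries. In PDGFRAhi FB-like cells 0 of 9 measured members were at least 2-fold higher than in the other fibroblast-lineage cells, where 3.76% of all genes were, and 3 (Tnxb, Thbs2 and Thbs4) were at least 2-fold lower, where 3.42% were. Thbs2 differed by -1.61 (-1.85 to -1.38) in the LI and -2.28 (-2.59 to -1.99) in the SI graft and Thbs4 by -3.21 (-3.67 to -2.77) and -2.58 (-3.25 to -1.97). Thbs1 and Sparc leaned the same way, Thbs1 at -1.12 and -0.90 and Sparc at -0.78 and -1.22, each past 2-fold in 1 library. Fn1 was just short of 2-fold higher, at 0.92 (0.87 to 0.98) and 0.87 (0.80 to 0.93), and Postn was 0.27 in the LI (0.028 among female and 2.17 among male cells) but -1.45 in the SI graft. With Louvain clusters in place of gates the Thbs2 call was lost, at -1.65 in the LI but -0.60 in the SI graft. The SI value pools the cluster led by Sox6, which held 75.0% of gated PDGFRAhi FB-like cells and had 34.3 CPM of Thbs2, with the cluster led by Wif1, of which 11.2% met the gate and which had 206 CPM.

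In pericyte-like cells 1 of 10 members, Vtn, was at least 2-fold higher than in fibroblast-lineage cells, where 6.46% of all genes were, and 4 were at least 2-fold lower, where 5.14% were. These 4 were Tnxb (-1.53 in the LI and -2.10 in the SI graft), Postn (-1.78 and -1.46), Thbs2 (-1.82 and -1.10) and Fn1 (-1.21 and -1.03). Thbs4 was -1.55 and -0.93. With clusters Postn (-1.85 and -0.66) and Fn1 (-1.73 and -0.81) fell under 2-fold in the SI graft and Thbs4 was lower in both (-2.68 and -3.17). With 1 marker fewer the calls of Thbs2 (-0.67 and -0.14) and Fn1 (-0.71 and -0.91) were lost, among female cells that of Fn1 (-1.33 and -0.83), and among male cells those of Tnxb (-0.74 and -2.70), Postn (-0.23 and -1.87) and Thbs2 (0.42 and -0.90). The male LI values rest on 48 pericyte-like cells. In SMC-like cells Vtn was again the 1 member at least 2-fold higher (3.82% of all genes) and Thbs2 the 1 at least 2-fold lower (1.93% of all genes), at -1.26 and -1.22. That Thbs2 call was lost with 1 marker fewer (-0.90 and -0.73) and among male cells (-0.66 and -0.26). The Vtn call in SMC-like cells was lost with clusters (-0.56 in the LI and 0.34 in the SI graft). Among male cells it was not met, at -0.83 in the LI graft. The 27 male SMC-like cells there had no Vtn UMI, so the pseudocount set that value. Pi16 and CD81 FB-like cells had no member 2-fold apart from the other fibroblast-lineage cells in both libraries, in either direction (1.22% of all genes higher and 2.38% lower for Pi16, 0.0852% and 0.925% for CD81). Pi16 FB-like cells came closest with Thbs1, at 0.81 and 0.98. Fgfr2 FB-like cells had 1 member lower, Thbs4 at -2.31 and -3.49 (1.16% of all genes), and 0 higher (0.397%).

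To compare the large with the small intestinal graft, the libraries were set side by side within fibroblast-lineage cells and within each class. In fibroblast-lineage cells Thbs4 had 129 and 45.7 CPM in the LI and SI graft, Postn 872 and 463, Thbs1 331 and 184, Tnc 141 and 83.6, Sparcl1 633 and 490.4 and Fn1 587 and 550.2 CPM. Tnxb had 148 and 215, Sparc 14093 and 16863, Thbs2 161 and 178 and Vtn 1.62 and 2.21 CPM. Of the 9 members with at least 10 CPM, 6 were higher and 3 lower in the LI graft by sign, and 1, Thbs4, was at least 2-fold higher, at 1.48 (1.40 to 1.56), where 1.88% of all 8597 genes were. Members at least 2-fold higher in the SI graft numbered 0, where 1.64% of all genes were. The median over the 9 members was 0.37, and over all genes tested -0.00. Postn differed by 0.91 (0.88 to 0.94), Thbs1 by 0.85 (0.81 to 0.89) and Tnc by 0.75 (0.69 to 0.81), while Fn1, at 0.09 (0.07 to 0.12), was nearly level.

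Within classes the differences did not all point one way. In Pi16 FB-like cells 3 members were at least 2-fold higher in the LI graft (4.48% of all genes), Tnc by 2.30 (1.99 to 2.62), Thbs4 by 2.05 (1.84 to 2.27) and Thbs2 by 1.33 (1.17 to 1.50). There 1 member, Tnxb at -1.12 (-1.22 to -1.02), was at least 2-fold higher in the SI graft (3.1%). These cells came from clusters led by Myoc, Cthrc1 and Ctla2a in the LI graft and by Pi16 and Stmn4 in the SI graft, so a difference of make-up within the class cannot be told apart from one within its cells. In PDGFRAhi FB-like cells only Postn, at 2.55 (2.41 to 2.71), a 5.88-fold difference, passed 2-fold toward the LI graft (3.54%), with 0 members toward the SI graft (4.09%). Tnc, highest in this class, did not differ there beyond its counting interval, at -0.03 (-0.21 to 0.14). Postn also passed 2-fold in Fgfr2 FB-like cells, at 1.79 (1.72 to 1.86), in other FB, at 1.12 (1.09 to 1.16), and in SMC-like cells, at 1.07 (1.0 to 1.14), but ran the other way in Pi16 FB-like cells, at -0.40 (-0.46 to -0.34). Thbs4 passed 2-fold in CD81 FB-like (1.59), Fgfr2 FB-like (2.60) and other FB (1.18), and Tnc in CD81 FB-like cells (1.28), with 1.0 just under the line in Fgfr2 FB-like cells. The shares of all genes toward the LI graft were 2.81% in CD81 FB-like cells (2 members), 2.42% in Fgfr2 FB-like cells (2 members), 1.69% in other FB (2 members), 2.12% in pericyte-like cells (0 members) and 1.95% in SMC-like cells (1 member). Toward the SI graft they were 1.92%, 2.39%, 1.64% and 1.74% with 0 members in the first 4 of these, and 2.86% with 1 member, Vtn at -1.36 (-1.80 to -0.95), in SMC-like cells. CD81 FB-like cells too came from different clusters, led by Myoc (36.2%), Fmo2 (19.7%) and Ctla2a (18.8%) in the LI and by Hbb-bs (38.2%) and Pi16 (21.0%) in the SI graft. Vtn in pericyte-like cells was also lower in the LI graft, at -0.56 (-0.67 to -0.46). Fn1 stayed within -0.13 and 0.16 in these 7 classes.

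**Figure D3:**
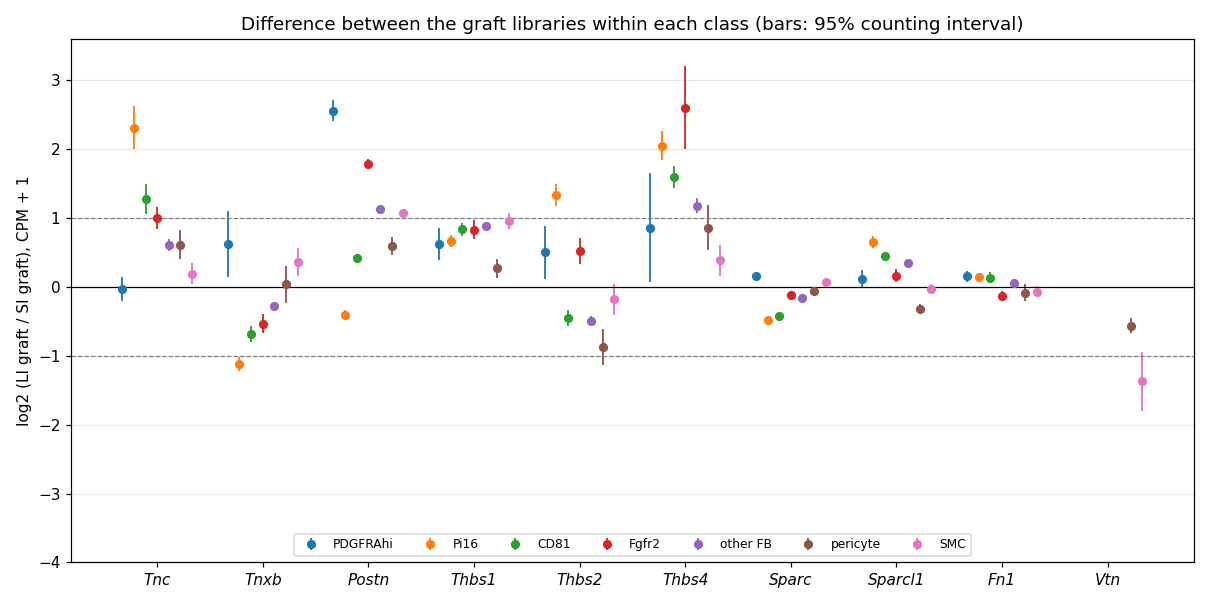
Log2 ratio of LI over SI graft (CPM + 1) for each gene, with 1 coloured point a class and its 95% counting interval, for classes with at least 10 CPM in a library. Dashed lines mark 2-fold; Postn runs from -0.40 in Pi16 FB-like to 2.55 in PDGFRAhi FB-like cells, Fn1 stays near 0, and Vtn has points in pericyte-like and SMC-like cells only.

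The libraries also differed in the sex of their cells. Cells with Xist and no Y-linked UMI were called female and the reverse male: 6225 LI and 3112 SI fibroblast-lineage cells were female, 665 and 1255 male, and the rest uncalled. Among female cells Thbs4 had 78.1 and 48.1 CPM in the LI and SI graft, a difference of 0.69 (0.58 to 0.80), and among male cells 373 and 42.8 CPM, a difference of 3.1 (2.95 to 3.24). Thbs4 therefore stayed under 2-fold in the female cells, which made up 82.4% of LI and 58.3% of SI fibroblast-lineage cells. Postn, the reverse case, had 1023 and 454 CPM in female cells of the LI and SI graft, 1.17 (1.13 to 1.20), but 284 and 492 CPM in male cells, -0.79 (-0.87 to -0.71). Thbs1 differed by 0.37 in female and 1.92 in male cells, Tnc by 0.30 and 1.73, Tnxb by -0.25 and -1.45, and Sparcl1 by 0.04 and 0.82. Fn1 differed by 0.12 and -0.22, Sparc by -0.09 and -0.71, and Thbs2 by -0.41 and -0.60. Within PDGFRAhi FB-like cells, of which 24 LI and 96 SI graft cells were male, the Postn difference was alike in both sexes, at 2.77 in female and 2.28 in male cells. In the other classes past 2-fold toward the LI graft it passed 2-fold in female cells alone. Postn differed by 1.82 in female and 0.33 in male Fgfr2 FB-like cells, by 1.40 and -0.82 in other FB, and by 1.30 and -0.30 in SMC-like cells, where 24, 361 and 27 LI graft cells were male. Within Pi16 FB-like cells Tnc (1.13 in female and 3.67 in male cells) and Thbs4 (1.67 and 2.61) passed 2-fold toward the LI graft in both sexes. There Tnxb (-0.87 and -1.77) and Postn (-0.23 and -1.49) passed it toward the SI graft in male cells alone, and Thbs2 was under 2-fold in each sex, at 0.98 (0.78 to 1.18) in female and 0.17 (-0.21 to 0.55) in male cells. In CD81 FB-like cells Thbs4 (0.89 and 2.36) and Tnc (0.53 and 2.19) passed 2-fold in male cells alone, as did Thbs4 in other FB (0.50 and 3.13). Thbs4 in Fgfr2 FB-like cells passed it in both, at 1.47 (0.71 to 2.27) in female and 6.19 (4.88 to 7.34) in male cells, the latter from 24 LI graft cells and a level of 1.94 CPM in the SI graft. Vtn in SMC-like cells was -1.63 (-2.08 to -1.18) in female cells, and the 27 male SMC-like cells of the LI graft had no Vtn UMI.

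Male over female fibroblast-lineage cells of the LI graft differed by 2.24 (2.16 to 2.32) for Thbs4 (373 and 78.1 CPM), 1.50 (1.45 to 1.55) for Thbs1 (690.0 and 244), -1.84 (-1.91 to -1.78) for Postn (284 and 1023) and -1.59 (-1.74 to -1.45) for Thbs2 (60.6 and 185). In the SI graft the same comparison gave -0.16 for Thbs4, -0.06 for Thbs1, 0.11 for Postn and -1.40 (-1.50 to -1.30) for Thbs2 (92.6 and 246 CPM), so of these 4 genes Thbs2 alone was past 2-fold in both libraries. Sparcl1 was lower in male cells too, at -0.25 in the LI and -1.03 in the SI graft. Embryo, graft and host of the cells are not marked in the data, so they cannot be told apart from sex. In the LI graft 48.4% of male but 0.562% of female fibroblast-lineage cells lay in the cluster led by Ctla2a and Cxcl9, which has MHC class II genes, the genes of antigen presentation, among its leading genes. In the SI graft 21.3% of male and 1.38% of female ones lay in such a cluster, led by Saa3 and Cd74. The LI cluster had 871 CPM of Thbs1 and 406 CPM of Thbs4 against 101 and 67.6 CPM in the SI cluster. Without both clusters, an alternative chosen after seeing the data, the LI over SI difference was 0.93 for Thbs4, 0.36 for Thbs1 and 0.95 for Postn, and 0 members were at least 2-fold higher in the LI graft. Outside these clusters LI male over female cells still differed by 1.57 for Thbs4, 0.67 for Thbs1, 1.58 for Tnc and -1.86 for Postn. Of the 627 cells of the LI cluster led by Areg (412 CPM of Tnc and 265 CPM of Postn) 51.5% were male. In the LI clusters led by Col6a5, Myoc, Fmo2, Kcnn3 and Agt at most 0.584% were. Sex and cluster therefore cannot be told apart in these differences. The part of these clusters and of sex in the differences between the libraries was not tested.

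**Figure D4:**
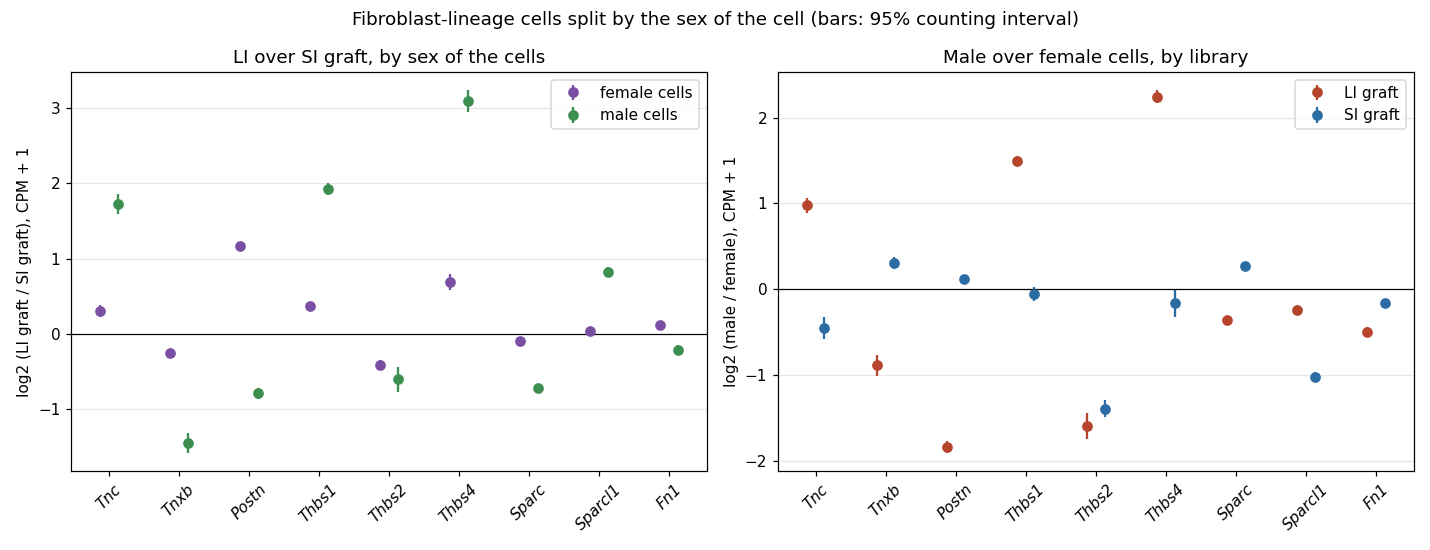
Fibroblast-lineage cells split by the sex of the cell, with log2 LI over SI graft (left) and log2 male over female (right), both of CPM + 1 with 95% counting intervals; Vtn, under 10 CPM, is left out. On the left the female and male points of Postn lie on opposite sides of 0 (1.17 and -0.79) and those of Thbs4 are furthest apart toward the LI graft (0.69 and 3.1).

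Other clusters stood out for single members. Tnc reached 412 CPM in the LI cluster of 627 cells led by Areg, Ereg and Ttyh1, of which 51.5% were male, against 215 CPM in LI PDGFRAhi FB-like cells. Thbs4 reached 524 and Tnc 297 CPM in the LI cluster of 156 cells led by Lcn2, Hand1 and Chil1, of which 57.7% were male. Tnxb was highest in the SI cluster led by Stmn4 and Pcolce2, at 462 CPM, which held 32.7% of SI Pi16 FB-like cells and had 1034 CPM of Postn. Postn was highest in the LI cluster led by Cnn1 and Actg2, the smooth muscle cluster, at 1744 CPM. The ICC-like cells, 332 in the LI and 46 in the SI graft, had 98.8 and 261 CPM of Thbs4, 645 and 1401 CPM of Sparcl1 and 4479 and 1658 CPM of Sparc, the lowest Sparc level of any class. Mesothelial-like cells, 32 and 22, had 223 and 778 CPM of Fn1, 317 and 173 CPM of Thbs1 and no Vtn UMI, which with so few cells allows up to 13.4 and 11.8 CPM.

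The rest of the family and the receptors were taken as 2 fixed lists. Of 17 other matricellular genes, 10 reached 10 CPM in the fibroblast lineage of a graft. In the LI graft 4 were at least 2-fold higher (1.88% of all genes): Spp1 (osteopontin; 75.6 and 8.10 CPM in the LI and SI graft, 3.07 (2.92 to 3.24)) and the CCN family genes Wisp2 (48.0 and 6.72 CPM, 2.67 (2.49 to 2.84)), Nov (62.6 and 17.5 CPM, 1.78 (1.66 to 1.90)) and Ctgf (200 and 86.8 CPM, 1.19 (1.14 to 1.25)). In the SI graft 1, the SPARC-related Smoc2, was at least 2-fold higher, as were 1.64% of all genes (97.9 and 225 CPM, -1.19 (-1.24 to -1.14)). The list's median was 0.43 and that of the members 0.37. Fstl1, another SPARC relative, had 934 and 912 CPM. Of 13 receptors, 10 reached 10 CPM, 0 were 2-fold apart in either direction and their median was -0.15. Itgb1, the shared chain of many matrix-binding integrins, had 511 and 555 CPM and was highest in SMC-like cells (1023 and 1058 CPM), but its protein was used to sort the cells. Itga8 and Itga9, chains that bind tenascin-C among others, were also highest in SMC-like cells, at 49.7 and 36.5 CPM and at 53.8 and 76.3 CPM. Cd47, a receptor of Thbs1, had 325 and 376 CPM in fibroblast-lineage cells. Itga8, Itga9 and Cd47 were picked for their binding partners, with their values already seen.

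The genes whose class levels were most like those of each member were ranked by Pearson r over the same 15 points among 4791 genes, as a description. For Vtn they were Tusc5 (0.97), Tmem11 (0.97), Gja4 (0.97), and for Tnxb Fmo2 (0.96), Cpz (0.95), Xdh (0.95). Thbs1 was most like Nov (0.94), Wisp2 (0.92), Prg4 (0.90), the first a pair of CCN genes given above, and Thbs4 like H19 (0.89), Wisp2 (0.87), Ctla2a (0.86). For Postn they were Nfil3 (0.91), Gstm1 (0.91), Sphk1 (0.90), for Tnc Tln2 (0.89), Gng2 (0.87), Ptov1 (0.87), and for Fn1 Sec24d (0.93), Fam3c (0.87), Fkbp10 (0.86). The ranking gave Tpt1 (0.98), Arl5b (0.97), C1s1 (0.96) for Sparc, Lmcd1 (0.84), Mpnd (0.83), Hspb7 (0.82) for Sparcl1 and Mgp (0.84), Gas6 (0.84), Gaa (0.83) for Thbs2. Among the members themselves the highest pairs were Tnxb with Sparc (0.85) and Thbs1 with Thbs4 (0.80). All points come from 2 libraries, and classes of 1 library share its free RNA and depth.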

How the data were processed

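A single-cell library of LI grafts was compared with a library of SI grafts. The authors deposited a matrix of raw counts (UMIs per gene and barcode) for each library, per the submitters' processing notes made with Cell Ranger 3.1.0 on mm10, and used Seurat 3 afterwards. Those barcodes numbered 11568 and 9631.

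Cells under 500 genes or over 10% mitochondrial UMIs were removed (leaving 9873 LI and 7910 SI graft cells). Marker gates then placed 9101 and 7136 of them in stromal classes: a cell needed 4 markers of a list (3 for short lists), and a fibroblast 4 of 8. The members and lists were chosen with earlier results of these data known, and the gate minimums after marker counts were seen, without looking at the members. UMIs were summed per class and divided by the class total (CPM). CPM has exact Poisson intervals, shares of cells exact Clopper-Pearson intervals, and a log2 ratio (pseudocount 1 CPM) an exact interval from the binomial split of its counts. All are at 95% and cover counting error only, and a count of 0 was given a limit of 3 counts. With 1 library a group no test was run. A difference was called at 2-fold among genes with at least 10 CPM. Doublets were kept, since Scrublet's own threshold marked 0 and 1 cells. As an alternative the 1071 and 742 highest-scoring barcodes were removed (0.8% per 1000 barcodes).

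The other alternatives were looser (200 genes, 20%) and stricter (1000 genes, 5%) cell filters, gates with 1 marker more or fewer, Louvain clusters (2000 variable genes without members and listed matrix genes, 30 components, resolution 0.8), the mean of per-cell CPM, a pseudocount of 5, TMM scaling, thinning to 2000 UMIs, cells of 1 sex, and a minimum of 50 CPM or of 1 UMI. Named genes were the 10 members, listed genes past 2-fold between libraries and the highest-expressed listed gene of each role, and the 3 genes most like each member among those with at least 50 CPM in a class. Gene positions and overlaps are those of the GENCODE annotation of GRCm38, and promoter windows those of RefSeq on GRCm38.p6, cut where they ran into the annotated gene. R 4.3.3 (edgeR 4.0.16, Seurat 5.3.0) and Python 3.11.15 (scanpy 1.11.5, pandas 2.3.3, scipy 1.17.1, numpy 2.4.6, matplotlib 3.10.9) were used, and the counting steps were tested on simulated data.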

Additional observations from a re-analysis of the deposited data

Results flagged for a closer look

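The direction of 2 members between the grafts differed between female and male fibroblast-lineage cells. Postn was higher in the LI graft among female cells, at a log2 difference of 1.17, and lower among male cells, at -0.79. Fn1 showed the same signs at small sizes, 0.12 among female and -0.22 among male cells. The difference between the sexes was not tested in either gene, since each library gives 1 value per sex and the embryo, graft and host of a cell are not marked.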

How the results depend on the processing

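No paired analysis was possible because each graft has 1 library, and for the same reason no replicate could be left out. The 15 alternatives included 1, leaving out the MHC class II clusters, that was chosen after seeing the data. Members at least 2-fold higher in the LI graft numbered 1 as reported, 3 among male cells, 2 with the mean of per-cell CPM, 2 after thinning to 2000 UMIs and 0 without the MHC class II clusters. Those higher in the SI graft numbered 1 among male cells against 0. Members higher in SMC-like cells numbered 0 with Louvain clusters and 0 among male cells against 1, and those lower 2 with clusters and 0 with 1 marker fewer against 1. Members lower in pericyte-like cells numbered 2 with 1 marker fewer and 2 among male cells against 4. The count with the same highest class was 4 with clusters and 4 among male cells (over 3 classes) against 8. Listed genes higher in the SI graft numbered 2 against 1 with clusters, TMM scaling, female cells, 1 marker fewer, per-cell CPM, a minimum of 1 UMI, thinning or the MHC class II clusters left out. The share of all genes called was taken under the reported settings alone. These counts under alternatives therefore cannot be set against such a share.

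Of 910 log2 values of single genes under these alternatives 469 stayed within the reported 95% counting interval, 424 moved out of it, and 17 whose interval had lain off 0 changed sign. Among male cells these were, in log2, LI over SI for Fn1 (-0.22) and Postn (-0.79), and in the LI graft SMC-like cells for Fn1 (0.63) and Vtn (-0.83) and pericyte-like cells for Sparc (0.028), Thbs2 (0.42) and Tnc (0.26). The LI graft had 27 male SMC-like cells, with no Vtn UMI, and 48 male pericyte-like cells. With clusters they were LI SMC-like cells for Thbs1 (-1.58), Tnc (-0.062) and Vtn (-0.56) and SI PDGFRAhi FB-like cells for Sparcl1 (0.65). With 1 marker fewer they were LI SMC-like cells for Fn1 (0.0191) and pericyte-like cells for Tnc (0.36 in the LI and 0.0093 in the SI graft). For Thbs4 in SI SMC-like cells they were -0.40 with 1 marker more, -0.12 with per-cell CPM and -0.15 after thinning. The cause of these changes was not tested.

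Depth limits low genes: Vtn in fibroblast-lineage cells was at 1.62 and 2.21 CPM, under the 10 CPM needed for a comparison, and the ICC-like and mesothelial-like classes hold too few cells for one. Counting intervals leave out the spread between grafts, which 1 library cannot show, so a difference between the grafts is one between 2 libraries.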
